A study of Homo sapiens with 6 samples.

Results

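The 39 genes described here encode the subunits of the transcription factor NF-kB, the inhibitors and feedback regulators that limit it, and cytokines and surface or effector proteins that it is known to induce. They were taken by gene symbol from a table of 32357 genes; all 39 were in the table and all 39 were among the 20144 genes that passed the filter on low counts. They fall into 5 subunits, 5 inhibitors of the IkB type, 13 feedback regulators and adaptors, 10 cytokines and 6 surface or effector genes, and chemokines are not included.

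The RNA came from A-498 and 786-O, established human clear cell renal cell carcinoma lines. Each line was stably transduced with ZNF395 hairpin 3, ZNF395 hairpin 1 or a non-targeting hairpin control and selected with puromycin, which gave 1 library per line and construct, 6 in all. All groups thus carry a retroviral hairpin construct and were selected with the drug, and no untransduced cells are included. The study set ZNF395 knockdown against control, and no label tells of repeated cultures, so p-values measure the spread between these libraries only. The lines served as replicates in the tests of each hairpin. In the comparison of the lines, the constructs of a line served as its replicates.

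NF-kB is a family of paired Rel proteins that IkB proteins hold in the cytoplasm until the IKK kinases mark those inhibitors for degradation. In the non-canonical branch, the kinase NIK (MAP3K14) drives processing of the NFKB2 precursor, and RELB is its usual partner. Many targets of NF-kB, such as NFKBIA, TNFAIP3 and BIRC3, feed back on the pathway, and tumour cells of epithelial origin can secrete NF-kB-dependent cytokines such as IL6.

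The targeted gene, ZNF395, stood at 14.3 CPM (counts scaled to library size) with hairpin 3 and 14.5 CPM with hairpin 1, against 67.9 CPM in the control of A-498, and at 13.5 and 24.7 CPM with these hairpins, against 96.3 CPM in the control of 786-O. Its log2 fold change was -2.52 (SE 0.213) for hairpin 3 and -2.08 (SE 0.209) for hairpin 1 (edgeR quasi-likelihood test, adjusted p = 0.00973 and 0.0269). CPM values are scaled by the TMM method and not by gene length, so levels are compared between libraries and not between genes. Library totals ran from 77534125 to 99147218 counts, and genes encoded in mitochondrial DNA took 5.13 to 8.21% of them. The renal markers PAX8 and PAX2 were present in every library, whereas the hypoxia target CA9 was at or below 0.0126 CPM in 786-O and at 0.399 to 1.67 CPM in A-498. Of the leukocyte markers in the table, 7 of 9 were under 1 CPM everywhere, with PTPRC at no more than 0.0902 CPM. The others were ITGAM, at 4.93 CPM with hairpin 3 and 2.38 CPM with hairpin 1, against 2.35 CPM in the control of A-498 and under 1 CPM in 786-O, and CSF1R, at 0.919 and 3.34 CPM with these hairpins, against 1.83 CPM in the control of 786-O and under 1 CPM in A-498. The summed level of the 9 was 3.54 to 5.57 CPM in knockdown and 3.33 CPM in control libraries of A-498, and 1.51 to 4.10 against 2.49 CPM in 786-O, and its part in the results was not tested. In bulk RNA, fewer cells of a type and less RNA per cell cannot be told apart.

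Upstream DNA of a few members is shown because the results return to these genes. NFKB2, NFKBIA, TNFAIP3, IL6 and CSF2 stood above the control with both hairpins in both lines, CSF2 far above it with hairpin 1. Each line gives the 130 bases before a transcription start, from RefSeq on GRCh38.p14, 5′ to 3′ on the strand of the gene, with capitals marking matches to the NF-kB decamer consensus on either strand.
NFKB2, the second of its 3 annotated starts (chr10:102394448-102394577, plus strand): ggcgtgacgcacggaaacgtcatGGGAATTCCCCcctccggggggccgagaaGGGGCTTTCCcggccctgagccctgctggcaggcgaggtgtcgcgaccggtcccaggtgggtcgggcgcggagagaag
NFKBIA (chr14:35404750-35404879, minus strand): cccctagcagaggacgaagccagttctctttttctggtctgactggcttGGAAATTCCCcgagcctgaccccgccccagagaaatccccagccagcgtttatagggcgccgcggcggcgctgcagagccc
TNFAIP3 (chr6:137867129-137867258, plus strand): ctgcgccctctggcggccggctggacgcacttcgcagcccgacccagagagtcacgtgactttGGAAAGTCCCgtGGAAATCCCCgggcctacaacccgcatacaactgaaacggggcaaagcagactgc
IL6 (chr7:22727070-22727199, plus strand): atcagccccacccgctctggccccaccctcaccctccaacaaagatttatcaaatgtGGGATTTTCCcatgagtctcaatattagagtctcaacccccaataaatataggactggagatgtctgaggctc
CSF2 (chr5:132073659-132073788, plus strand): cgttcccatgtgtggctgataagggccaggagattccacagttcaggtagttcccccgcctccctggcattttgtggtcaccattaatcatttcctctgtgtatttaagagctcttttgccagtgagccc
The match in IL6 begins 73 bases before the start and that in NFKBIA 81 bases before it. TNFAIP3 has a pair of matches, 67 and 55 bases before the start. The NFKB2 window holds overlapping matches at 107 and 106 bases and another at 78 bases. No match lies in the window of CSF2, which says only that these letters are not in it. IRAK2, also above the control with both hairpins in both lines, has no match in the 250 bases before its start and is not shown. NFKBIZ, lower than the control with hairpin 3, has matches before its starts and is not shown either. Of the 34 members with a window in the RefSeq table, 18 (52.9%) had a match in the 250 bases before a start, against 3221 of 27305 genes (11.8%). The members were picked as known NF-kB genes, so nothing is read from that share, and a match is not evidence of binding.

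Across the members, most stood above the control with hairpin 1 in both lines and fewer did with hairpin 3, above all in A-498. The share of members with a log2 ratio to the line's control above 0 was 53.8% for hairpin 3 and 84.6% for hairpin 1 in A-498, and 76.9% and 87.2% for these hairpins in 786-O. Over all genes tested these shares lay between 48.3 and 51.2%. The median log2 ratio of the members was 0.08 for hairpin 3 and 0.41 for hairpin 1 in A-498, and 0.39 and 0.57 for these hairpins in 786-O, where the medians of all genes were within 0.01 of 0. All 4 knockdown libraries stood above their line's control for 16 members, against 13.3% of all genes, and below it for 0 members, against 14% of all genes. The 16 were NFKB1, NFKB2, RELB, NFKBIA, NFKBIB, NFKBIE, TNFAIP3, TNIP1, TRAF1, CYLD, CFLAR, IRAK2, CSF2, IL6, LIF and IL1A. The 4 ratios share 2 control libraries, 1 per line, so they are not independent of each other. The members were also chosen with earlier results of these data known, so their shares beside those of all genes are descriptive and not a test.

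**Figure D1:**
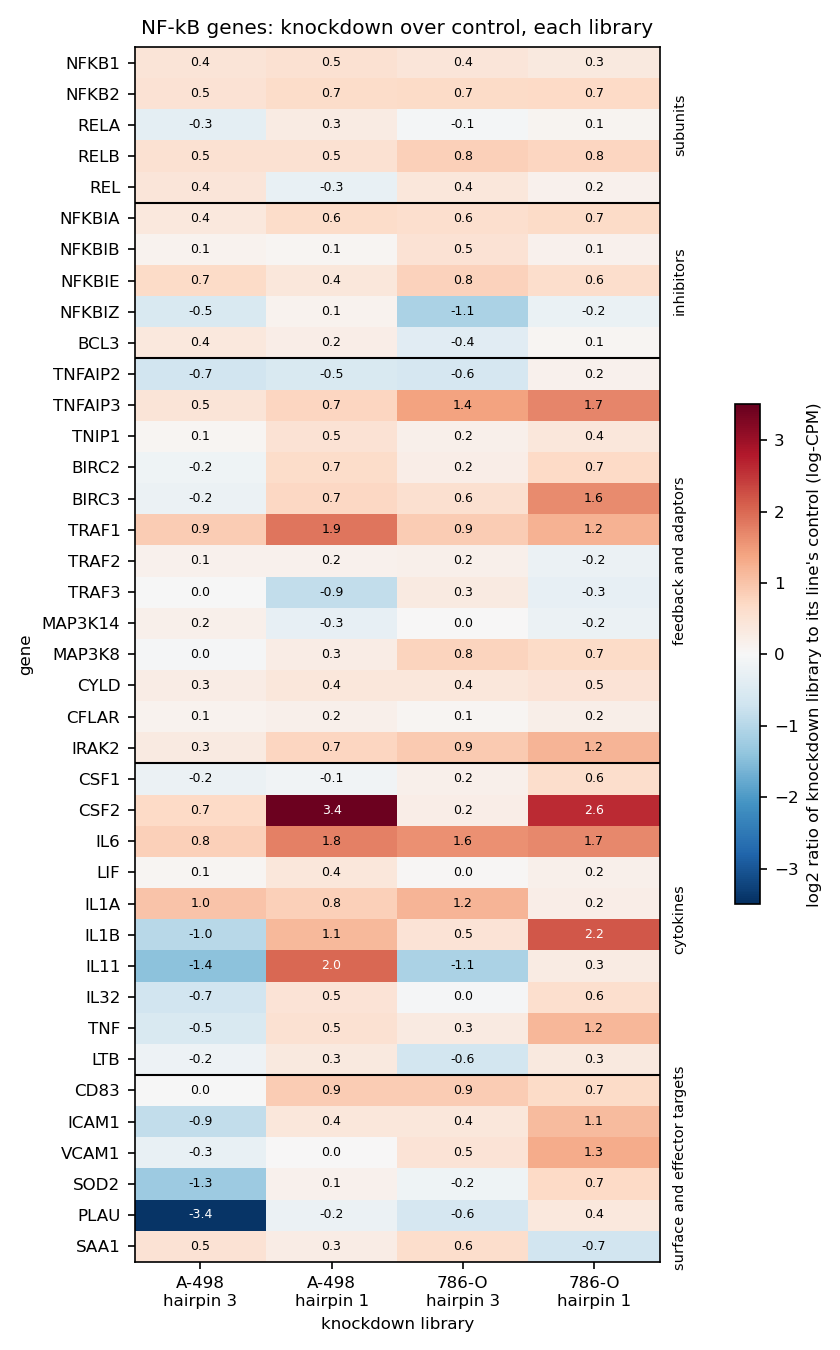
Log2 ratio of each knockdown library to its line's control (log-CPM with a prior count of 2; colour and printed value) for the 39 members, in rows grouped by role, with 1 column per knockdown library. CSF2 with hairpin 1 in A-498 (3.44) and PLAU with hairpin 3 in A-498 (-3.42) lie at the ends of the scale, and NFKB2, RELB, NFKBIA, NFKBIE and IL6 are above 0 in all 4 columns.

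No member passed the test when both hairpins were pooled against the control, 0 higher and 0 lower, and neither did any other gene (0% higher and 0% lower of 20144 genes, edgeR quasi-likelihood test, adjusted p under 0.05). ZNF395, the targeted gene, was not called either, so the lack of calls does not show that the members were unchanged. At an unadjusted p under 0.05, 10 members were higher in knockdown cells and 0 lower, beside 2.51% of all genes higher and 2.52% lower. Those 10 were IL6, NFKB2, RELB, TRAF1, TNFAIP3, NFKBIA, NFKBIE, IRAK2, NFKB1 and CYLD, and their log2 fold changes ran from 0.39 for CYLD to 1.5 for IL6. The median over the 39 members was 0.38. With the hairpin number as a replicate block, 0 members were called, against 0.0447% of all genes called higher. DESeq2 with the same model called 4 members, namely NFKB2, RELB, TRAF1 and IL6, all higher, among 85 genes in all, and limma-voom called 0 members.

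Set against the control on its own, hairpin 3 had 5 members called higher and 1 lower, and hairpin 1 had 1 called higher and 0 lower. These counts do not rank the hairpins, as the median log2 fold change of the members was 0.14 with hairpin 3 and 0.46 with hairpin 1. P-values are adjusted over all genes of a comparison, so an unadjusted p that passes with hairpin 3 can miss with hairpin 1. The hairpin 3 calls were NFKB2, RELB, NFKBIE, TRAF1 and IL6 upward, beside 2.55% of all genes, and NFKBIZ downward, beside 4.16% of all genes. The hairpin 1 call was CSF2, beside 0.0397% of all genes called higher and 0.109% called lower. At an unadjusted p under 0.05, hairpin 3 had 12 members higher and 5 lower (11.7 and 14.1% of all genes) and hairpin 1 had 21 members higher and 1 lower (5.23% of all genes in each direction). Both comparisons use the same 2 control libraries. The calls rest on few libraries. For hairpin 3 the count of called members was 0 (of 235 genes called in all) when the 786-O control was left out, 1 (of 121) when the A-498 control was, and 3 (of 882) when the 786-O library of hairpin 1 was, where the whole table gave 6 of 1351. With 786-O hairpin 3 left out it was 8 of 2337, and with A-498 hairpin 3 left out 10 of 2076. For hairpin 1 it was 0 when the A-498 control (7 genes in all) or the 786-O library of hairpin 1 (0 genes) was left out. It was 12 when either library of hairpin 3 was, among 488 genes in all for A-498 and 608 for 786-O, where the whole table gave 1 of 30. Dropping the filter on low counts gave 12 members of 2654 genes for hairpin 3 and 10 of 478 for hairpin 1, so the calls over all genes moved with those of the members.

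Among the subunits, the pair of the non-canonical branch rose with hairpin 3 and both had higher values in every knockdown library than in their line's control. NFKB2, the precursor of p52, stood at 188 CPM with hairpin 3 and 210 CPM with hairpin 1, against 133 CPM in the control of A-498. In 786-O NFKB2 stood at 127 CPM with hairpin 3 and 128 CPM with hairpin 1, against 79.2 CPM in the control. The hairpins lay close together and above the control in each line, and the log2 fold change was 0.59 (SE 0.120) for hairpin 3 and 0.68 (SE 0.120) for hairpin 1 (edgeR, adjusted p = 0.0373 and 0.132). NFKB2 lost the hairpin 3 call on leaving out the 786-O control (adjusted p = 0.302), the A-498 control (0.258) or hairpin 1 of 786-O (0.0582). RELB, the partner of p52, stood at 39.2 CPM with hairpin 3 and 39.2 CPM with hairpin 1, against 27.0 CPM in the control of A-498. In 786-O RELB stood at 36.4 CPM with hairpin 3 and 34.7 CPM with hairpin 1, against 20.5 CPM in the control. The 4 knockdown libraries of RELB lay above both controls without overlap, with a log2 fold change of 0.68 (SE 0.134) for hairpin 3 and 0.64 (SE 0.134) for hairpin 1 (edgeR, adjusted p = 0.0339 and 0.182). RELB lost the hairpin 3 call on leaving out the same libraries (edgeR, adjusted p = 0.314, 0.186 and 0.055 in that order). With hairpin 1, DESeq2 called both NFKB2 and RELB (adjusted p = 0.000453 and 0.00841), and limma-voom called neither.

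NFKB1, the precursor of p50, had a log2 fold change of 0.42 for hairpin 3 and 0.45 for hairpin 1 and did not pass the test (edgeR, adjusted p = 0.0826 and 0.268). It lay between 88.2 and 97.4 CPM in the 4 knockdown libraries and at 65.0 and 73.3 CPM in the controls, with no overlap. DESeq2 called NFKB1 with hairpin 3 (adjusted p = 0.0353) and not with hairpin 1. RELA, which encodes the p65 subunit of the canonical branch, had log2 fold changes of -0.19 for hairpin 3 and 0.19 for hairpin 1, and REL, a subunit best known from lymphocytes, 0.42 and -0.04, none of them past the threshold. Of the exon bases of REL, 50.7% are shared with another annotated gene on the same strand, so its count is uncertain.

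**Figure D2:**
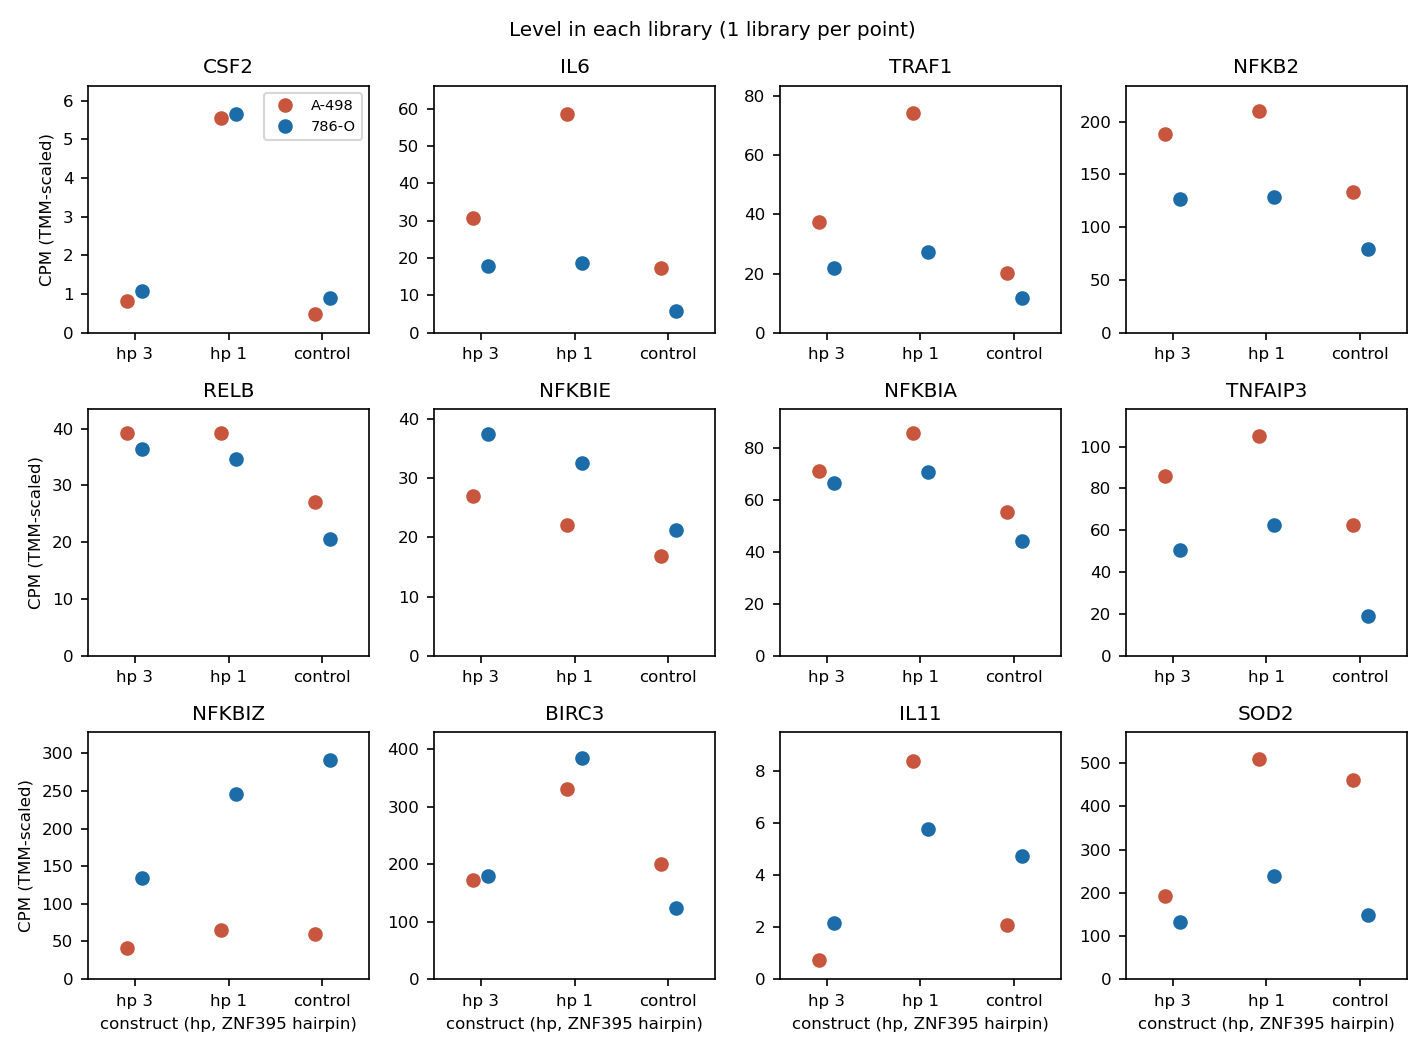
TMM-scaled CPM of 12 members (vertical axes from 0, 1 panel per gene) in each library, by construct (hp, ZNF395 hairpin) along the horizontal axis, with A-498 in red and 786-O in blue and 1 library per point. NFKB2, RELB, NFKBIE and NFKBIA lie above their line's control with both hairpins, whereas CSF2 stands at 5.55 and 5.65 CPM with hairpin 1 and at no more than 1.07 CPM elsewhere.

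Among the inhibitors, one rose and one fell with hairpin 3. NFKBIE, which encodes IkB epsilon, stood at 26.9 CPM with hairpin 3 and 22.1 CPM with hairpin 1, against 16.9 CPM in the control of A-498. In 786-O NFKBIE stood at 37.5 CPM with hairpin 3 and 32.6 CPM with hairpin 1, against 21.3 CPM in the control. Every knockdown library was above its own control, and the log2 fold change was 0.74 (SE 0.134) for hairpin 3 and 0.50 (SE 0.133) for hairpin 1 (edgeR, adjusted p = 0.0278 and 0.266). NFKBIE lost its call on leaving out the 786-O control (adjusted p = 0.261) or the A-498 control (0.191). NFKBIA, the IkB alpha gene whose promoter is shown above, stood at 71.1 CPM with hairpin 3 and 85.8 CPM with hairpin 1, against 55.4 CPM in the control of A-498. In 786-O NFKBIA stood at 66.5 CPM with hairpin 3 and 70.9 CPM with hairpin 1, against 44.4 CPM in the control. These knockdown values did not overlap the controls, but the change did not pass the threshold, with log2 fold changes of 0.47 and 0.65 for hairpins 3 and 1 (edgeR, adjusted p = 0.0662 and 0.136). NFKBIA did pass it with both hairpins in DESeq2 (adjusted p = 0.0210 and 0.0021 for hairpins 3 and 1), and with neither in limma-voom.

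NFKBIZ encodes a nuclear IkB protein that acts as a cofactor for a set of secondary response genes, IL6 among them. It stood at 41.1 CPM with hairpin 3 and 65.2 CPM with hairpin 1, against 59.7 CPM in the control of A-498. In 786-O NFKBIZ stood at 135 CPM with hairpin 3 and 246 CPM with hairpin 1, against 291 CPM in the control. The hairpin 3 library was the lowest in both lines, and the log2 fold change was -0.83 (SE 0.161) for hairpin 3 and -0.07 for hairpin 1 (edgeR, adjusted p = 0.0326 and 0.923). NFKBIZ lost its hairpin 3 call on leaving out the 786-O control (log2 fold change -0.57, adjusted p = 0.276), the A-498 control (0.0617), hairpin 1 of 786-O (0.0642) or hairpin 3 of 786-O (0.0546). The difference between the hairpins itself passed the test, a log2 fold change of hairpin 3 over hairpin 1 of -0.76 (SE 0.160, edgeR, adjusted p = 0.0352). That call was lost on leaving out hairpin 1 of 786-O (adjusted p = 0.133), hairpin 3 of 786-O (0.0587) or hairpin 1 of A-498 (0.117). NFKBIB, the IkB beta gene, and BCL3, a nuclear IkB protein that binds p50 and p52, had log2 fold changes between -0.00 and 0.33 with the 2 hairpins.

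Of the 13 feedback regulators and adaptors, TRAF1 alone passed the edgeR test against the control, with hairpin 3, beside 2.55% of all genes called higher. With hairpin 1, 0 of them passed it, beside 0.0397% of all genes called higher and 0.109% lower. At an unadjusted p under 0.05, 7 were higher with hairpin 1 and 1 lower, beside 5.23% of all genes each way. DESeq2, and edgeR without the filter on low counts, called BIRC2, BIRC3, IRAK2, TNFAIP3 and TRAF1 higher with hairpin 1. TRAF1, an adaptor of TNF receptors that is itself induced by NF-kB, stood at 37.4 CPM with hairpin 3 and 74.1 CPM with hairpin 1, against 20.2 CPM in the control of A-498. In 786-O TRAF1 stood at 22.0 CPM with hairpin 3 and 27.3 CPM with hairpin 1, against 11.8 CPM in the control. Hairpin 1 gave the highest value in both lines, and the log2 fold change was 0.90 (SE 0.193) for hairpin 3 and 1.56 (SE 0.196) for hairpin 1 (edgeR, adjusted p = 0.0431 and 0.0656). TRAF1 lost the hairpin 3 call on leaving out the 786-O control (adjusted p = 0.121), the A-498 control (0.31) or hairpin 3 of 786-O (0.0591). The hairpin 1 estimate was the larger, at a similar SE, and still missed the threshold in edgeR. DESeq2 called TRAF1 with hairpin 1 (adjusted p = 1.32e-08), and limma-voom did not. The adjustment runs over all genes of a comparison, and far fewer genes in all were called with hairpin 1. The difference of hairpin 3 from hairpin 1 was -0.66 (edgeR, adjusted p = 0.0781).

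TNFAIP3, which encodes the ubiquitin-editing inhibitor A20, was singled out after its values were seen. It stood at 85.7 CPM with hairpin 3 and 105 CPM with hairpin 1, against 62.4 CPM in the control of A-498. In 786-O TNFAIP3 stood at 50.4 CPM with hairpin 3 and 62.7 CPM with hairpin 1, against 19.0 CPM in the control. The CPM ratio to the control was 1.38 and 1.68 for hairpins 3 and 1 in A-498, and 2.65 and 3.30 in 786-O. Neither hairpin passed the test (log2 fold change 0.90 and 1.20 for hairpins 3 and 1, edgeR, adjusted p = 0.0745 and 0.175), and the difference between the lines in the knockdown effect was -0.96 (SE 0.410, edgeR, unadjusted p = 0.0579). DESeq2 called TNFAIP3 with both (adjusted p = 0.0131 and 0.00162 for hairpins 3 and 1), and limma-voom with neither.

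BIRC3 and BIRC2 encode the ubiquitin ligases cIAP2 and cIAP1, which act downstream of TNF receptors and, with TRAF2 and TRAF3, keep NIK low. Both were lower with hairpin 3 than with hairpin 1 in each line. BIRC3 stood at 173 CPM with hairpin 3 and 331 CPM with hairpin 1, against 200.01 CPM in the control of A-498. In 786-O BIRC3 stood at 180 CPM with hairpin 3 and 385 CPM with hairpin 1, against 123 CPM in the control. The hairpin 1 libraries stood apart from the other 4, and the log2 difference of hairpin 3 from hairpin 1 was -1.02 (SE 0.222, edgeR, adjusted p = 0.0381). BIRC3 lost that call on leaving out hairpin 1 of 786-O (adjusted p = 0.188) or hairpin 3 of A-498 (0.0669).

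BIRC2 stood at 73.5 CPM with hairpin 3 and 129 CPM with hairpin 1, against 82.2 CPM in the control of A-498, and in 786-O at 163 and 224 CPM with these hairpins, against 140 CPM. The difference of hairpin 3 from hairpin 1 was -0.63 (SE 0.141, edgeR, adjusted p = 0.0407). BIRC2 kept that call on leaving out hairpin 3 of 786-O (adjusted p = 0.00974) and lost it with any of the other 5 libraries left out (0.0525 to 0.171). TRAF3, the adaptor that recruits NIK to its ligases, went the other way. It stood at 52.1 CPM with hairpin 3 and 29 CPM with hairpin 1, against 52.5 CPM in the control of A-498, and in 786-O at 50.3 and 33.6 CPM, against 40.8 CPM. Hairpin 1 gave the lowest TRAF3 value in both lines, and hairpin 3 was higher than hairpin 1 by 0.71 (SE 0.160, edgeR, adjusted p = 0.0424). The call was lost on leaving out hairpin 1 of A-498 (adjusted p = 0.209), hairpin 1 of 786-O (0.0682) or hairpin 3 of A-498 (0.0553). TRAF3 was the 1 member called higher in that comparison.

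The remaining feedback genes and adaptors did not pass an edgeR test between constructs with the filter on low counts and all 6 libraries. Without that filter, edgeR called IRAK2 with both hairpins (adjusted p = 0.0369 and 0.00604 for hairpins 3 and 1) and TNFAIP2 with hairpin 3 (adjusted p = 0.0157). DESeq2 called IRAK2 with both hairpins (adjusted p = 0.0368 and 0.000972 for hairpins 3 and 1) and TNFAIP2 with hairpin 3 (adjusted p = 0.0335). IRAK2, a kinase-like adaptor of the IL-1 receptor, had the highest folds among them, 0.60 for hairpin 3 and 0.95 for hairpin 1, and CYLD, a deubiquitinase that opposes the pathway, had 0.33 and 0.45. TNIP1, which binds A20, had 0.13 and 0.46. MAP3K14, MAP3K8, CFLAR and TRAF2 ran from -0.23 to 0.46 over both hairpins, and TNFAIP2, a TNF-induced gene, had -0.63 and -0.18 (edgeR, adjusted p = 0.0931 and 0.804). Part of MAP3K14 (14.7% of its exon bases) overlaps its antisense gene, and whether the authors counted by strand is not given.

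Most cytokines were lower with hairpin 3 than with hairpin 1. Over the 10 of them the median log2 fold change was 0.01 with hairpin 3 and 0.91 with hairpin 1. The median difference of hairpin 3 from hairpin 1 was -0.79, where it was -0.76 over the 6 surface and effector genes and -0.01 over all genes. Of the 10, 9 had a difference below 0, beside 10215 of 20144 genes, and 4 were called lower, beside 5.4% of all genes. CSF2, which encodes the growth factor GM-CSF, stood at 0.807 CPM with hairpin 3 and 5.55 CPM with hairpin 1, against 0.491 CPM in the control of A-498. In 786-O CSF2 stood at 1.07 CPM with hairpin 3 and 5.65 CPM with hairpin 1, against 0.898 CPM in the control. The hairpin 1 libraries held 445 and 443 counts in A-498 and 786-O, and no other library held more than 80.

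Relative to its line's control, CSF2 with hairpin 3 was 1.64-fold in A-498 (95% counting interval 1.14 to 2.40) and 1.19-fold in 786-O (0.852 to 1.66). With hairpin 1 it was 11.3-fold (8.40 to 15.5) in A-498 and 6.30-fold (4.89 to 8.21) in 786-O. These intervals cover counting error only. The log2 fold change was 0.46 (SE 0.287) for hairpin 3 and 3.06 (SE 0.285) for hairpin 1 (edgeR, adjusted p = 0.368 and 0.0215). The hairpin 1 call was lost when the 786-O library of that hairpin was left out (edgeR, adjusted p = 0.107) or the A-498 control was (adjusted p = 0.101). The difference of hairpin 3 from hairpin 1 was -2.60 (SE 0.277, edgeR, adjusted p = 0.00899), and it passed the threshold in each of the 10 alternatives run. ZNF395 itself differed between the hairpins by -0.44 (adjusted p = 0.22).

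IL6, the acute-phase cytokine, was above the control with either hairpin. It stood at 30.9 CPM with hairpin 3 and 58.6 CPM with hairpin 1, against 17.3 CPM in the control of A-498. In 786-O IL6 stood at 17.8 CPM with hairpin 3 and 18.8 CPM with hairpin 1, against 5.88 CPM in the control. The hairpins were nearly level in 786-O and apart in A-498, with ratios to the control of 1.79 and 3.39 for hairpins 3 and 1 in A-498, against 3.03 and 3.20 in 786-O. The log2 fold change was 1.23 (SE 0.224) for hairpin 3 and 1.72 (SE 0.225) for hairpin 1 (edgeR, adjusted p = 0.0288 and 0.0714). IL6 lost its hairpin 3 call on leaving out the 786-O control (adjusted p = 0.155) or the A-498 control (0.0869). With hairpin 1, IL6 was called by DESeq2 (adjusted p = 2.14e-08) and by edgeR without the filter on low counts (4.72e-05), and not by limma-voom. Of the exon bases of IL6, 25.0% lie opposite an annotated antisense gene.

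IL11, an IL-6 family cytokine, stood at 0.746 CPM with hairpin 3 and 8.41 CPM with hairpin 1, against 2.07 CPM in the control of A-498. In 786-O IL11 stood at 2.17 CPM with hairpin 3 and 5.78 CPM with hairpin 1, against 4.73 CPM in the control. The control lay between the hairpins in both lines, and the difference of hairpin 3 from hairpin 1 was -2.50 (SE 0.501, edgeR, adjusted p = 0.0311), while neither hairpin passed the test against the control (log2 fold change -1.25 for hairpin 3 and 1.25 for hairpin 1). IL11 lost the call between hairpins on leaving out hairpin 3 of A-498 (adjusted p = 0.0596), and leaving out hairpin 1 of A-498 brought the difference to -1.5 (adjusted p = 0.0451). IL32, a proinflammatory cytokine, stood at 82.5 CPM with hairpin 3 and 181 CPM with hairpin 1, against 130 CPM in the control of A-498, and in 786-O at 296 and 454 CPM, against 305 CPM. Its difference of hairpin 3 from hairpin 1 was -0.87 (SE 0.173, edgeR, adjusted p = 0.0311). IL32 lost it on leaving out hairpin 1 of 786-O (adjusted p = 0.0914) or of A-498 (0.1).

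IL1B was nearly absent from 786-O, with 2 counts with hairpin 3 and 11 with hairpin 1, against 1 in the control. In A-498 it stood at 1.03 CPM with hairpin 3 and 4.46 CPM with hairpin 1, against 2.04 CPM in the control. The difference of hairpin 3 from hairpin 1 was -2.21 (SE 0.418, edgeR, adjusted p = 0.0268), and the call was lost on leaving out hairpin 3 of A-498 (adjusted p = 0.27), hairpin 1 of A-498 (0.0919) or hairpin 1 of 786-O (0.0907). TNF stood at 0.04 to 0.11 CPM in A-498 and 1.69 to 3.79 CPM in 786-O, and IL1A and LTB were under 1 CPM in every library. LIF, CSF1 and these 3 had no call between constructs.

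**Figure D3:**
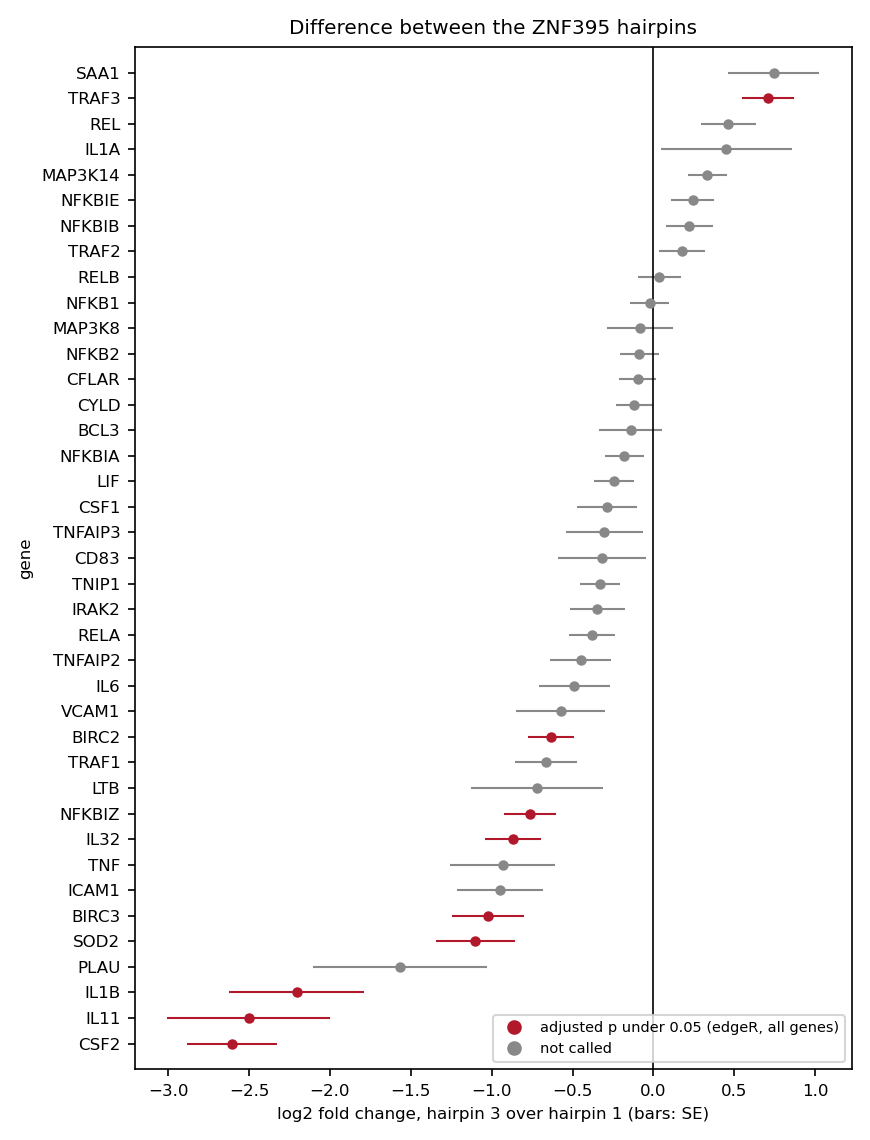
Log2 fold change of hairpin 3 over hairpin 1 (horizontal axis) for the 39 members, with bars of 1 SE from the edgeR fit over both lines and members past the threshold in red, the others in grey. CSF2 (-2.60), IL11 (-2.50) and IL1B (-2.21) lie farthest below 0 among the members that passed the test, and TRAF3 (0.71) is above 0.

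Set directly against hairpin 1, hairpin 3 gave 8 members called lower and 1 called higher, of 30 with a fold below 0 and 9 above. The contrast itself takes no control, but the controls enter the estimate of spread, and leaving out the control of 786-O or of A-498 gave 10 called members with either, ICAM1 and PLAU among them and BIRC2 not. The 8 were CSF2, IL11, IL1B, SOD2, BIRC3, IL32, NFKBIZ and BIRC2, beside 5.4% of all genes called lower, and TRAF3 was called higher, beside 4.09% of all genes. At an unadjusted p under 0.05, 15 members were lower and 4 higher (15.2 and 12.8% of all genes). When hairpin 1 of 786-O was left out, CSF2 and IL11 were the 2 members called, among 249 genes in all, against 9 of 1910 in the whole table. When hairpin 1 of A-498 was left out, 5 were called, among 735 genes: BIRC3, CSF2 and IL11 again, with SAA1 and VCAM1. Leaving out hairpin 3 of A-498 gave 5, among 2004 genes: CSF2, IL32, NFKBIZ and SOD2 again, with PLAU. Leaving out hairpin 3 of 786-O gave 14, among 3307 genes. NFKB1, NFKB2 and RELB had differences of -0.02, -0.09 and 0.04 (SE 0.120, 0.120 and 0.133), none larger than its error.

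Of the surface and effector genes, SOD2, the mitochondrial superoxide dismutase, was the 1 with a call between constructs. It stood at 192 CPM with hairpin 3 and 510.1 CPM with hairpin 1, against 461 CPM in the control of A-498. In 786-O SOD2 stood at 133 CPM with hairpin 3 and 240 CPM with hairpin 1, against 148 CPM in the control. Hairpin 3 gave the lowest value in each line, and its difference from hairpin 1 was -1.10 (SE 0.245, edgeR, adjusted p = 0.0406). SOD2 lost the call on leaving out hairpin 1 of 786-O (adjusted p = 0.154) or of A-498 (0.069). ACAT2 overlaps 6.24% of the exon bases of SOD2 on the opposite strand.

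PLAU, the urokinase gene, stood at 0.184 CPM with hairpin 3 and 1.90 CPM with hairpin 1, against 2.20 CPM in the control of A-498. In 786-O PLAU stood at 25.3 CPM with hairpin 3 and 49.5 CPM with hairpin 1, against 38.1 CPM in the control. The hairpin 3 value was the lowest in each line, but the log2 fold change of -1.51 had an SE of 0.546 and missed the threshold (edgeR, adjusted p = 0.143), and 28.7% of its exon bases lie opposite C10orf55. PLAU passed it with a fold of -3.39 when hairpin 3 of 786-O was left out (adjusted p = 0.00185) and with -1.51 when low counts were not filtered (adjusted p = 0.0105). CD83, a surface glycoprotein of activated immune cells, stood at 8.30 CPM with hairpin 3 and 15.6 CPM with hairpin 1, against 8.36 CPM in the control of A-498, and in 786-O at 20.7 and 17.8 CPM, against 11.1 CPM. It missed the threshold with both hairpins.

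The adhesion molecules ICAM1 and VCAM1 also had no edgeR call with the filter on low counts and all libraries. Their log2 fold changes were -0.23 and 0.07 for hairpin 3 and 0.72 and 0.64 for hairpin 1. The hairpin 3 values went opposite ways in the lines. ICAM1 was 0.555-fold its control in A-498 and 1.32-fold in 786-O, and VCAM1 0.836-fold and 1.39-fold. DESeq2 called ICAM1 lower with hairpin 3 than with hairpin 1 (log2 difference -0.96, adjusted p = 0.0113). Of the exon bases of ICAM1, 25.1% lie opposite another annotated gene. SAA1, an acute-phase protein whose near-identical paralog SAA2 makes its count uncertain, lay between 4.43 and 13.1 CPM in all libraries.

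The lines themselves differed in many of these genes. A-498 was higher than 786-O for 12 members and lower for 10, beside 25.7 and 21.4% of all genes (edgeR, adjusted p under 0.05), so these shares lie near the background. The replicates of a line in this test were its libraries of different constructs, not repeated cultures. Leaving out either control library lowered the count of 22 to 13. IL1B was higher in A-498, with a log2 fold change of 5.42 over 786-O (SE 0.860, edgeR, adjusted p = 0.00291). TNF was lower, with -5.05 (SE 0.480, edgeR, adjusted p = 0.000391), and both are early proinflammatory cytokines. IL1B had no more than 11 counts in a library of 786-O, and TNF no more than 9 in one of A-498. Both folds are thus set against values near the floor, and the filter on low counts was not grouped by line. IL6 (1.38), TNFAIP2 (1.39), IRAK2 (1.09), TNFAIP3 (1.07), TRAF1 (1.05) and NFKB2 (0.68) were also higher in A-498, whereas PLAU (-4.82), NFKBIZ (-1.99), MAP3K8 (-1.43), IL32 (-1.41), BIRC2 (-0.88) and RELA (-0.67) were lower. RELB, NFKBIA, BIRC3, CSF2 and ICAM1 did not pass the test between lines.

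**Figure D4:**
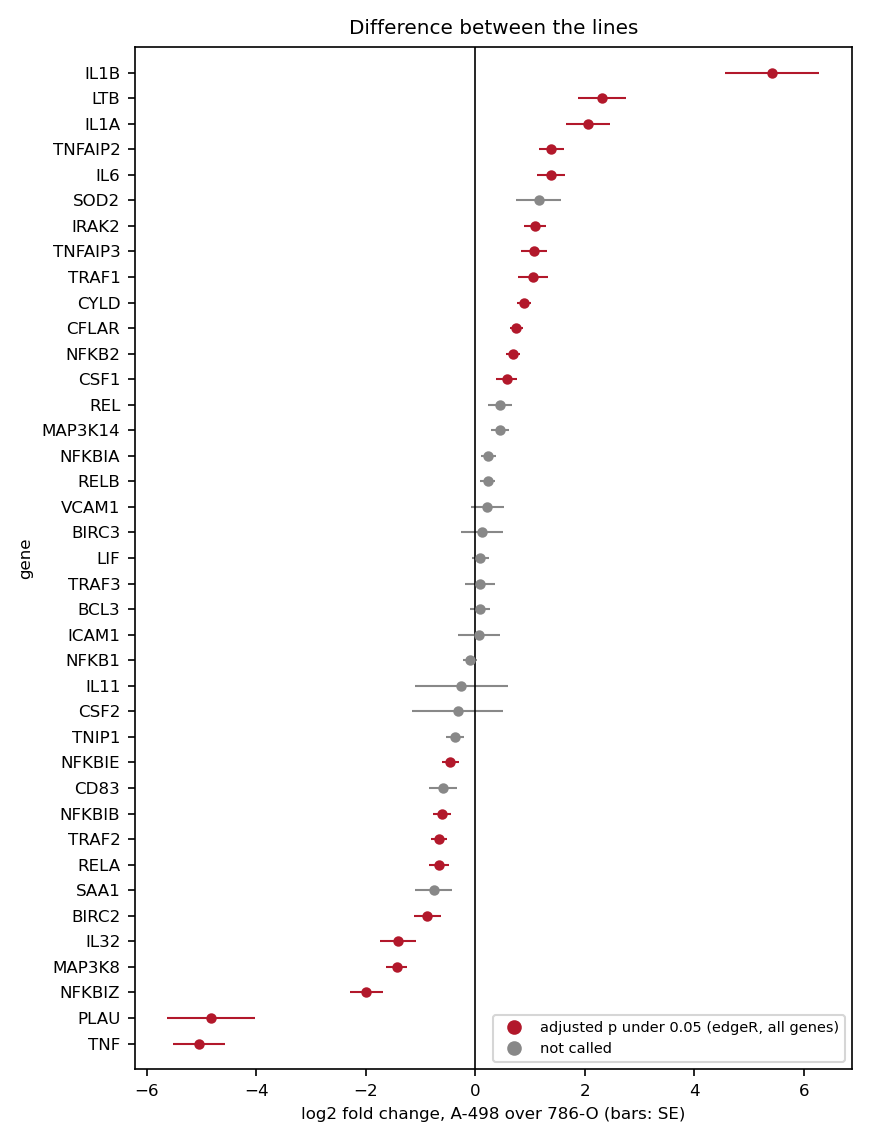
Log2 fold change of A-498 over 786-O (horizontal axis) for the 39 members, with bars of 1 SE from the edgeR fit over all 6 libraries and members past the threshold in red, the others in grey. IL1B (5.42) and TNF (-5.05) lie at opposite ends, each with counts near the floor in the line where it is lower.

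Whether knockdown acted differently in the lines was tested by the interaction of line and knockdown. It called 0 members higher and 0 lower, beside 0% of all genes in each direction (edgeR, adjusted p under 0.05). At an unadjusted p under 0.05, 0 members passed, beside 100 genes higher and 59 lower of the 20144 tested. Few genes of any kind passed, so the lack of calls does not show that the lines responded alike. DESeq2 and limma-voom called 0 members. With 1 control per line, the spread in this test came from the hairpins within each line. The smallest p among the members was that of TNFAIP3 given above.

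Genes of the pathway outside the 39 were taken from 2 lists. Of 28 IKK-complex, kinase and adaptor genes, 27 were tested. None was called against the control with hairpin 3 (0 called; 7 higher and 1 lower at an unadjusted p under 0.05, beside 11.7 and 14.1% of all genes) or with hairpin 1 (0 called; 3 higher and 1 lower, beside 5.23% of all genes each way). The median log2 fold change of these 27 was 0.11 with hairpin 3 and -0.00 with hairpin 1. TNIP2, an A20-binding protein, was higher with hairpin 3 than with hairpin 1 by 0.70 (SE 0.114, edgeR, adjusted p = 0.0194). It stood at 57.2 CPM with hairpin 3 and 35.5 CPM with hairpin 1, against 43.3 CPM in the control of A-498, and in 786-O at 80.5 and 49.3 CPM, against 58.9 CPM.

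Of 30 further NF-kB targets, 29 were tested, and hairpin 3 raised 3 and lowered 1, beside 2.55 and 4.16% of all genes. For hairpin 1 the calls were 0, with 11 higher and 1 lower at an unadjusted p under 0.05, beside 5.23% of all genes each way. Between hairpin 3 and hairpin 1, 1 was called higher and 4 lower, beside 4.09 and 5.4% of all genes. F3, the tissue factor gene, stood at 18.3 CPM with hairpin 3 and 10.9 CPM with hairpin 1, against 6.94 CPM in the control of A-498, and in 786-O at 266 and 117 CPM, against 53.4 CPM. Its log2 fold change with hairpin 3 was 1.87 (SE 0.217, edgeR, adjusted p = 0.0130), and it was the 1 called higher with hairpin 3 than with hairpin 1 (log2 difference 0.98, adjusted p = 0.0365). PTX3, a secreted pattern recognition protein, rose by 1.53 (adjusted p = 0.0356). SERPINB2, an inhibitor of urokinase, was called as well, but had 1 and 0 counts in the hairpin 3 and hairpin 1 libraries of A-498 and 67 and 18 counts in those of 786-O, against 0 in both controls. RIPK2, the kinase of the NOD receptors, stood at 46.8 CPM with hairpin 3 and 134 CPM with hairpin 1, against 107 CPM in the control of A-498, and in 786-O at 60.4 and 127 CPM, against 113 CPM. Its log2 fold change was -1.05 for hairpin 3 (SE 0.143, edgeR, adjusted p = 0.0157), and it was lower with hairpin 3 than with hairpin 1 (log2 difference -1.30, adjusted p = 0.00908). PTGS2, the inducible cyclooxygenase (log2 difference -1.30, edgeR, adjusted p = 0.0307), IL23A, a subunit of IL-23 (-1.51, adjusted p = 0.0339), and C3, the central complement component (-1.08, adjusted p = 0.0408), were the others lower with hairpin 3 than with hairpin 1.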

How the data were processed

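RNA of 6 libraries was measured with a stranded total RNA kit, per the labels' protocols. The authors deposited whole-number read counts per gene symbol without normalization; the tools STAR and DESeq2 and the builds hs37d5 and hg19 are named in the submitters' processing notes. Their versions and roles, the strand setting, the counter and the annotation are not stated in what was used here. Every gene of the table has a summed count of at least 2. In GENCODE, 13 members share exon bases with another gene, 10 of them with a gene on the opposite strand. A counter that ignores strand could add reads of the other gene to those 10. For the rest, the shared bases are on the same strand, where the strand setting makes no difference. The authors also deposited, per the file headers, a mean signal per gene and DESeq2's Wald score, p-values and log2 fold change with SE. The sign of that log2 fold change was read against the counts of ZNF395 as control over knockdown. No number column was left unused (0).

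The test on counts was that of edgeR 4.0.16 (R 4.3.3; TMM scaling, the expression filter grouped by knockdown status, quasi-likelihood F tests, Benjamini-Hochberg adjustment over all 20144 genes, call at 0.05). Line and knockdown status were the terms of the model for pooled knockdown and for the lines. The model for each hairpin and their difference had line and construct, and that for the interaction had 4 means. Standard errors were derived from F. Log2 ratios per library used a prior count of 2, and CPM ratios have 95% counting intervals, which cover counting error only. Alternatives were RLE size factors, no filter, DESeq2 1.42.0, limma-voom (limma 3.58.1), a replicate block and each library left out in turn. The scripts were checked on simulated data. The labels' replicate numbers are the hairpin numbers and mark a shared reagent, and the difference of hairpin 3 from hairpin 1 correlated between the lines (Pearson r 0.577 over 11027 genes at a mean of 5 CPM or more).

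The members and lists were chosen with earlier results of these data known. Values per library are given for members called between constructs, and in each role group for the member with the smallest p between knockdown and control and the member with the largest mean absolute ratio among those reaching 1 CPM in a library. RefSeq windows of 250 bases before a start were searched for the NF-kB decamer consensus.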

Additional observations from a re-analysis of the deposited data

Results flagged for a closer look

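CSF1, the macrophage growth factor gene, moved in opposite directions in the lines, which is why it is given here. Its log2 ratios to the line's control were -0.22 for hairpin 3 and -0.12 for hairpin 1 in A-498, and 0.18 and 0.63 for these hairpins in 786-O. The levels were 420 CPM with hairpin 3 and 450.2 CPM with hairpin 1, against 488 CPM in the control of A-498, and 283 and 386 CPM, against 249.9 CPM, in 786-O. The difference between the lines in the knockdown effect, -0.59 (SE 0.409), did not pass the interaction test (edgeR, adjusted p = 1.00).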

How the results depend on the processing

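Counts of members called changed with the settings as follows. For pooled knockdown, DESeq2 called 4 (of 85 genes in all) where edgeR called 0 (of 0), and leaving out any library gave 0. For hairpin 3, no filter gave 12 (of 2654 genes in all) and DESeq2 11 (of 2599) where the count was 6 (of 1351), and leaving out each library gave 0 to 10 (of 121 to 2337). For hairpin 1, no filter gave 10 (of 478) and DESeq2 10 (of 448) where it was 1 (of 30), and leaving out each library gave 0 to 12 (of 0 to 608). The difference of hairpin 3 from hairpin 1 gave 2 to 14 (of 249 to 3307) over the left-out libraries (9 of 1910 with all), and A-498 against 786-O 13 to 23 of 5581 to 8587 (22 of 9501 with all). The cause was not tested. RLE size factors and limma-voom left the counts against the control and between hairpins as they were. The replicate block gave 0 for pooled knockdown, 0 for the interaction and 28 for the lines. The interaction could not be fitted without either control. In pooled knockdown, where no member was called, the log2 fold change turned sign for IL11 with limma-voom (-0.11, against 0.39), and over left-out libraries it ran from -0.76 to 1.15 for IL11, -0.16 to 2.58 for IL1B, -0.12 to 0.37 for IL32, -0.38 to 0.32 for SOD2 and -0.36 to 0.018 for TRAF3. Single calls missed the threshold in 17 repeats for hairpin 3 (43 kept it), in 2 for hairpin 1 (8 kept it) and in 21 between hairpins (69 kept it), with no change of direction. With 1 library per line and construct, an effect of a culture or transduction cannot be told apart from that of a hairpin.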

Other observations

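In the authors' deposited table, which sets control over knockdown, 33 of the 39 members have a negative log2 fold change, that is, higher in knockdown cells. The edgeR fit of pooled knockdown also had 33 members higher, beside 10084 of 20144 genes. The deposited values accompany the same counts, so they are not a second source of support. An adjusted p under 0.05 is given in the authors' deposited table to 4 members, namely IL6 (-1.14, adjusted p = 0.00215), TRAF1 (-0.92, adjusted p = 0.0448), NFKB2 (-0.58, adjusted p = 0.0464) and RELB (-0.60, adjusted p = 0.0480), among 85 of 16046 genes (0.53%) with an adjusted p there.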
